A study of Mus musculus with 4 samples.

Results

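The Hippo pathway and its effector YAP were examined at the level of RNA in mouse embryonic stem cells driven towards mesoderm. The genes were the 10 rows of the deposited table named Yap1, Wwtr1, Tead1, Tead2, Lats2, Amot, Amotl2, Ctgf (also called Ccn2), Cyr61 (also called Ccn1) and Ankrd1, chosen by name out of 51826 genes. The data comprised 4 libraries of polyadenylated RNA from C57BL/6 cells, 2 from Stk40-/- cells and 2 from wild-type cells. Stk40 encodes a pseudokinase, and the study asked what its deletion does to c-JUN protein and to mesoderm formation. Cells of both genotypes were grown the same way. They had been kept on feeder fibroblasts, which were removed by passage onto gelatin, were then given BMP4 at 10 ng/ml for 2 days, and were moved to 1 uM CHIR99021, a GSK3 inhibitor, with 0.5% DMSO and 15% serum replacement until collection at day 3. Whether the 2 libraries of a genotype came from separate cultures, and whether each genotype is 1 line, is not stated, so that p-values describe only the spread between these libraries and a difference between genotypes cannot be told apart from one between lines.

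In the Hippo pathway a kinase cascade ends in LATS1 and LATS2, which phosphorylate the coactivators YAP (Yap1) and TAZ (Wwtr1) and hold them in the cytoplasm. Unphosphorylated YAP and TAZ enter the nucleus and bind the TEAD transcription factors, which carry them to DNA. Their targets include the secreted matricellular proteins CTGF and CYR61, the ankyrin repeat protein ANKRD1, and the inhibitors LATS2 and AMOTL2, which form a negative feedback. Angiomotins bind YAP directly and keep it out of the nucleus. In the early mouse embryo TEAD and YAP activity separates trophectoderm from inner cell mass, and in cultured cells it follows cell density, spreading and tension on the actin cytoskeleton. YAP is regulated mainly as a protein, by phosphorylation and location, which RNA levels do not report.

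All values are TPM, the abundance of a transcript scaled for its length and for library size, as the authors deposited them. Stk40 itself was at 3.54 and 3.17 TPM in the Stk40-/- libraries, against 28.9 and 39.9 TPM in the wild-type libraries, which fits the labels. Markers of mesoderm-like cells summed to 468 and 313 TPM in Stk40-/- libraries and to 1395 and 737 TPM in wild-type libraries. Most of each sum was T, at 355 and 217 TPM in Stk40-/- and 1025 and 535 TPM in wild-type libraries. For 9 of the 15 markers the genotypes were separated with Stk40-/- lower, meaning that the higher Stk40-/- library was below the lower wild-type one. Trophoblast markers, mostly keratin transcripts, summed to 741 and 592 TPM in Stk40-/- and 1236 and 831 TPM in wild-type libraries (5 of 11 genes separated with Stk40-/- lower, 1 with it higher). Feeder fibroblast markers summed to 38.6 and 37.3 TPM in Stk40-/- and 49.0 and 57.0 TPM in wild-type libraries (6 of 14 lower, 1 higher). The 10 pluripotency markers summed to 1052 and 1043 TPM in Stk40-/- and 1075 and 1194 TPM in wild-type libraries (2 lower, 3 higher). Endoderm markers summed to at most 11.2 TPM in Stk40-/- and 14.8 TPM in wild-type libraries, and endothelial and blood markers to at most 12.6 TPM in Stk40-/- and 15.0 TPM in wild-type libraries. Among all these markers Hbb-bh1 alone was listed at 0 in every library. The counts above include markers averaging below 1 TPM. Of those averaging 1 TPM or more, 7 of 9 mesoderm-like markers were separated with Stk40-/- lower and 0 with it higher. For trophoblast these were 5 and 0 of 8, and for feeder fibroblasts 5 and 1 of 10. Over all genes averaging 1 TPM or more the shares were 16.6% lower and 27.5% higher. The part that differences in cell make-up play in the results below was not tested, and in bulk RNA fewer cells of a type cannot be told apart from less RNA per cell.

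Levels of the 3 classical YAP target genes Ctgf, Cyr61 and Ankrd1 were above wild type in both Stk40-/- libraries, those of Yap1 overlapped between genotypes, and those of the angiomotin gene Amot were below wild type, but none of these differences passed the test. All 10 genes passed the filter, a mean of 1 TPM or more, and were tested together with every other such gene, 15739 in all, by limma on log2(TPM + 1), and 0 of the 10 had a Benjamini-Hochberg adjusted p under 0.05 (smallest adjusted p = 0.401). Over all genes tested the limma count was also 0 (0% called; smallest adjusted p = 0.114). At an unadjusted limma p under 0.05 there were 2 of the 10 genes among the higher ones, Ctgf and Cyr61, and 0 among the lower ones, where the background was 6.48% of all genes tested for higher and 4.51% for lower. The genotypes were separated with Stk40-/- higher for 7 of the 10 genes, against 27.5% of all genes tested, and with Stk40-/- lower for 1 of the 10, Amot, against 16.6%. The median log2 fold change of the 10 genes was 0.33 and that of all genes tested was 0.07. The 10 genes share libraries and were picked with earlier results of these data known, so the count is a description. A fold change on this scale understates that of low genes.

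**Figure D1:**
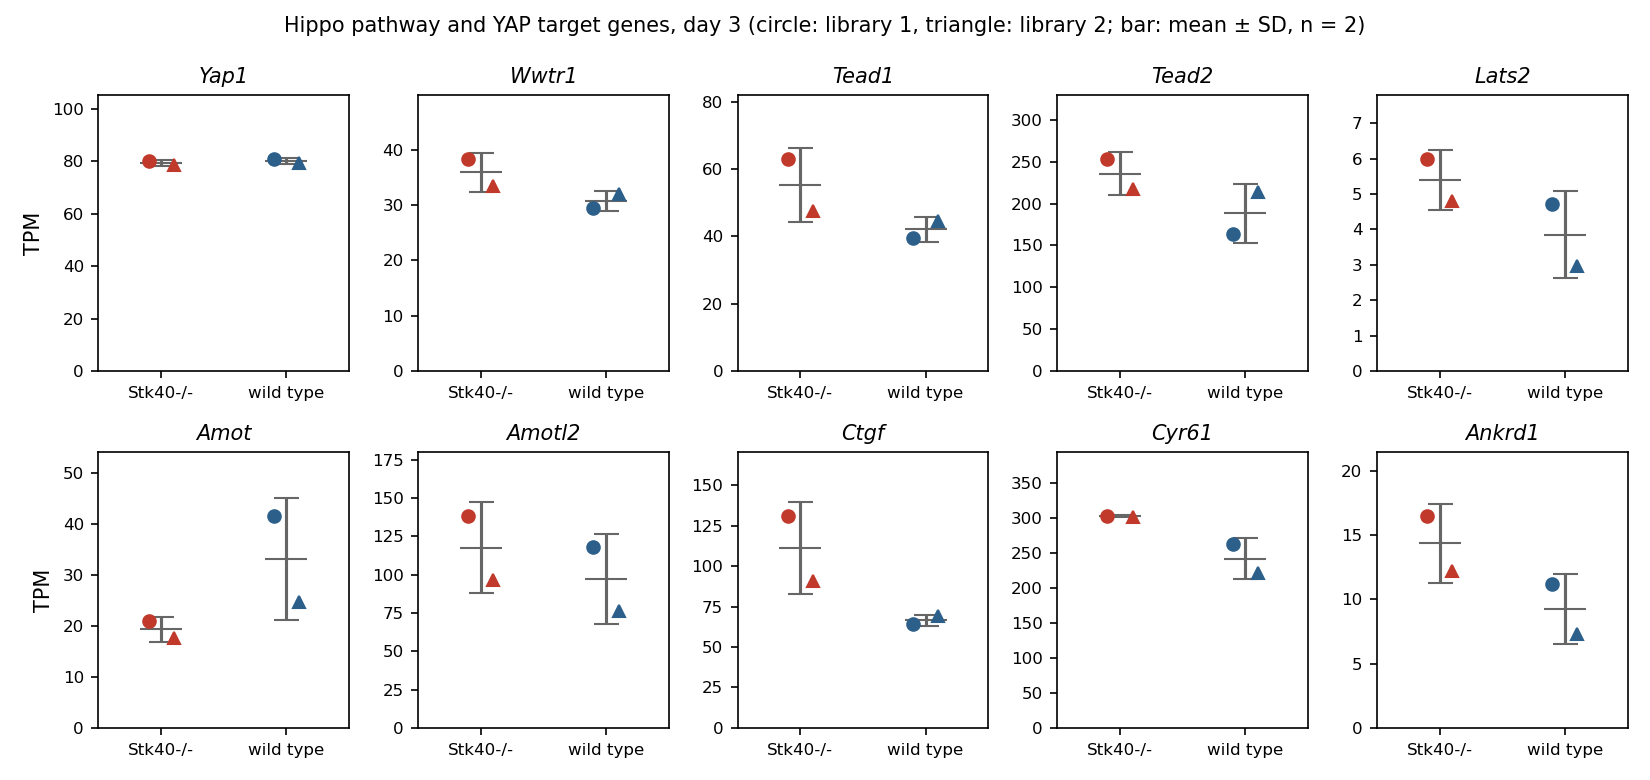
TPM of the 10 genes in each library, with Stk40-/- on the left and wild type on the right of each panel; circles are library 1, triangles library 2, and bars the mean ± SD of 2 libraries. Ctgf, Cyr61 and Ankrd1 are separated with Stk40-/- higher, Amot with Stk40-/- lower, and Yap1 lies between 78.5 and 81.0 TPM in all 4.

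Ctgf (ENSMUSG00000019997.11; GRCm38 chromosome 10, 24595442 to 24598683), which encodes the matricellular protein CTGF and is a widely used readout of YAP activity, had the largest positive log2 fold change of the 10 over all 4 libraries, though without wild-type library 1 those of Ankrd1 (0.87) and Lats2 (0.68) were above its 0.65. It was at 131 and 90.8 TPM in the Stk40-/- libraries, against 64.2 and 69.0 TPM in the wild-type libraries. The wild-type libraries lay close together and the Stk40-/- libraries apart, with no overlap. The mean was 111 ± 28.5 TPM in Stk40-/- and 66.6 ± 3.40 TPM in wild-type cells (SD, n = 2 each), a ratio of 1.67. The log2 fold change was 0.70 (SE 0.20, 95% interval 0.17 to 1.24, limma adjusted p = 0.401), and 6.58% of all genes tested had a larger one. It was 0.44 without Stk40-/- library 1. An antisense transcript, Gm15270, overlaps exons of Ctgf and was at 5.59 and 0 TPM in Stk40-/- and 1.18 and 1.03 TPM in wild-type libraries. Whether the quantification used strand is not stated.

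Cyr61 (ENSMUSG00000028195.4; chromosome 3, 145646976 to 145649981, minus strand), the close relative of Ctgf and also a YAP target, was the most abundant of the 10 genes. Its levels were 304 and 302 TPM in Stk40-/- libraries, against 263 and 221 TPM in wild-type libraries. Here the Stk40-/- libraries were nearly equal and lay above both wild-type libraries. The mean was 303 ± 0.846 TPM in Stk40-/- and 242 ± 29.5 TPM in wild-type cells, with a log2 fold change of 0.33 (SE 0.10, 95% interval 0.05 to 0.61, limma adjusted p = 0.430). Without wild-type library 2 it was 0.20. The ratio of Ctgf to Cyr61 in TPM was 0.432 and 0.300 in Stk40-/- libraries and 0.244 and 0.312 in wild-type libraries, so it overlapped between genotypes although each gene by itself did not. Of the 4 other members of the CCN gene family, Nov, Wisp1, Wisp2 and Wisp3, 1 reached the filter. This was Wisp1, at 1.88 and 0.827 TPM in Stk40-/- libraries and 2.49 and 0.882 TPM in wild-type libraries.

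Ankrd1 (ENSMUSG00000024803.8; chromosome 19, 36111961 to 36120099, minus strand), which encodes a nuclear and sarcomeric ankyrin repeat protein, had low levels. It was at 16.5 and 12.2 TPM in Stk40-/- libraries, against 11.2 and 7.31 TPM in wild-type libraries. The gap between the lower Stk40-/- library and the higher wild-type library was small next to the spread within each genotype. The log2 fold change was 0.60 (SE 0.27, 95% interval -0.14 to 1.33, limma adjusted p = 0.510), and leaving out wild-type library 2 gave 0.32, leaving out Stk40-/- library 1 gave 0.39.

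Because the 3 targets lay on the same side of wild type, the DNA upstream of their start sites was examined for the TEAD core motif GGAATG, on either strand. RefSeq promoter sequences on GRCm38.p6 matched 8 of the 10 genes, all but Tead1 and Ctgf. In the 250 bases before the RefSeq start, 5 of these 8 genes held the core, namely Cyr61, Ankrd1, Amotl2, Yap1 and Wwtr1, against 14.4% of 27025 genes in the same table. Ankrd1 held it at 2 places. Cyr61, Ankrd1 and Amotl2 were listed because they are known YAP targets, so this share is a description and no test. The windows of Lats2 and Amot, which held none, lay inside the span of the gene in GENCODE vM21. The DNA before that span was not searched for these genes. The stretches below are given 5′ to 3′ on the strand of the gene, with the core in capitals, and show the site in each of the 5 genes; CATTCC is the core on the other strand.

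Cyr61, chr3:145650071-145650100, minus strand, 103 bases before the start: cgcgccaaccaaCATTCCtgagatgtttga
Ankrd1, chr19:36120037-36120066, minus strand, 210 bases before the start: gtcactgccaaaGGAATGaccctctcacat
Ankrd1, chr19:36119950-36119979, minus strand, 123 bases before the start: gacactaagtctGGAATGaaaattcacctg
Amotl2, chr9:102717727-102717756, plus strand, 65 bases before the start: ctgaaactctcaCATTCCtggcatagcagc
Yap1, chr9:8004720-8004749, minus strand, 141 bases before the start: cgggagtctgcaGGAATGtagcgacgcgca
Wwtr1, chr3:57576029-57576058, minus strand, 136 bases before the start: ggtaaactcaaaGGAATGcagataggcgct

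The Amotl2 stretch and both Ankrd1 stretches overlap an annotated exon in GENCODE vM21 and lie inside the GENCODE span of their own gene. They are thus before the RefSeq start but not before the GENCODE one. The whole window of Cyr61, the most abundant target, spans chr3:145649986-145650235 on the minus strand and is shown for the setting of its single core, again in capitals.

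Cyr61: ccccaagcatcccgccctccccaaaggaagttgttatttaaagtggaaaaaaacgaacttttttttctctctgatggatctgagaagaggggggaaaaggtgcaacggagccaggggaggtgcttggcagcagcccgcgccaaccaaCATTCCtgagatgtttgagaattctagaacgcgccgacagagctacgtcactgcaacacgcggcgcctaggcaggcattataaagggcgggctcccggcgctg

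The AP-1 motif TGANTCA, searched because JUN proteins bind it and because it reads the same on both strands, was in 0 of the 8 genes' windows and in 7.82% of all genes' windows. The CArG box, which serum response factor binds, was in 0 of the 8 and in 1.62% of all genes. A match describes the letters in the window and says nothing of binding in these cells, and sites further away were not searched.

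Yap1 (ENSMUSG00000053110.13; chromosome 9, 7931999 to 8004596, minus strand), the coactivator at the centre of the pathway, was the steadiest of the 10 genes. It was at 80.1 and 78.5 TPM in Stk40-/- libraries, against 81.0 and 79.4 TPM in wild-type libraries. The groups overlapped, and on the log2 scale the whole range over the 4 libraries was smaller than the distance between replicates for every other of the 10 genes but Cyr61 in Stk40-/- cells. The log2 fold change was -0.02 with a 95% interval of -0.23 to 0.20 (limma adjusted p = 0.957), and under the 13 alternative settings it stayed between -0.10 and 0.00.

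Wwtr1 (ENSMUSG00000027803.14; chromosome 3, 57455649 to 57575910, minus strand), which encodes TAZ, was less abundant than Yap1. It was at 38.4 and 33.4 TPM in Stk40-/- libraries, against 29.4 and 32.0 TPM in wild-type libraries. The groups did not overlap, but the lower Stk40-/- library was close to the higher wild-type library (log2 fold change 0.22, SE 0.13, 95% interval -0.13 to 0.56, limma adjusted p = 0.589). Without Stk40-/- library 1 it was 0.12. Yap1 made up 67.6% and 70.2% of the summed TPM of the pair in Stk40-/- libraries, against 73.4% and 71.3% in wild-type libraries, without overlap. The sum of the pair was 119 and 112 TPM in Stk40-/- and 110 and 111 TPM in wild-type libraries.

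Tead2 (ENSMUSG00000030796.17; chromosome 7, 45215753 to 45233644) was the main TEAD gene here. It encodes a TEAD factor known to be expressed from the earliest stages of the mouse embryo. Its levels were 254 and 218 TPM in Stk40-/- libraries, against 163 and 214 TPM in wild-type libraries. Stk40-/- library 2 and wild-type library 2 were nearly equal, so the separation rested on library 1 of each genotype (log2 fold change 0.33, SE 0.16, 95% interval -0.11 to 0.77, limma adjusted p = 0.532, and 0.14 when wild-type library 1 was left out, 0.52 when wild-type library 2 was). On the opposite strand Cd37 overlaps exons of Tead2 and was at no more than 0.661 TPM in Stk40-/- and 1.66 TPM in wild-type libraries.

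Tead1 (ENSMUSG00000055320.17; chromosome 7, 112679318 to 112906807) was at 63.1 and 47.4 TPM in Stk40-/- libraries, against 39.5 and 44.7 TPM in wild-type libraries. Stk40-/- library 1 stood apart from the other 3 libraries (log2 fold change 0.37, SE 0.18, 95% interval -0.10 to 0.85, limma adjusted p = 0.516), and without it the value was 0.17, against 0.58 without Stk40-/- library 2. The other TEAD genes were low. Tead3 was at 17.4 and 20.7 TPM in Stk40-/- and 17.0 and 17.3 TPM in wild-type libraries. Tead4, the TEAD of trophectoderm, was at 5.46 and 4.81 TPM in Stk40-/- and 4.03 and 6.75 TPM in wild-type libraries.

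Shares within the TEAD family overlapped between genotypes for Tead2, Tead1 and Tead3 but not for Tead4. Tead2 held 74.7% and 74.9% of the summed TEAD TPM in Stk40-/- libraries, against 73.0% and 75.7% in wild-type libraries. Tead1 held 18.6% and 16.3% in Stk40-/- and 17.6% and 15.8% in wild-type libraries. Tead3 held 5.13% and 7.13% in Stk40-/- and 7.61% and 6.13% in wild-type libraries. The small share of Tead4 was 1.61% and 1.65% in Stk40-/- and 1.80% and 2.39% in wild-type libraries, although its TPM overlapped. The sum of the 4 genes was 340 and 291 TPM in Stk40-/- libraries and 224 and 282 TPM in wild-type libraries. When each library was centred on the median of its tested genes, the groups of Tead1, Tead2 and Wwtr1 overlapped, while Ctgf, Cyr61, Ankrd1 and Lats2 were still separated with Stk40-/- higher and Amot with Stk40-/- lower.

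**Figure D2:**
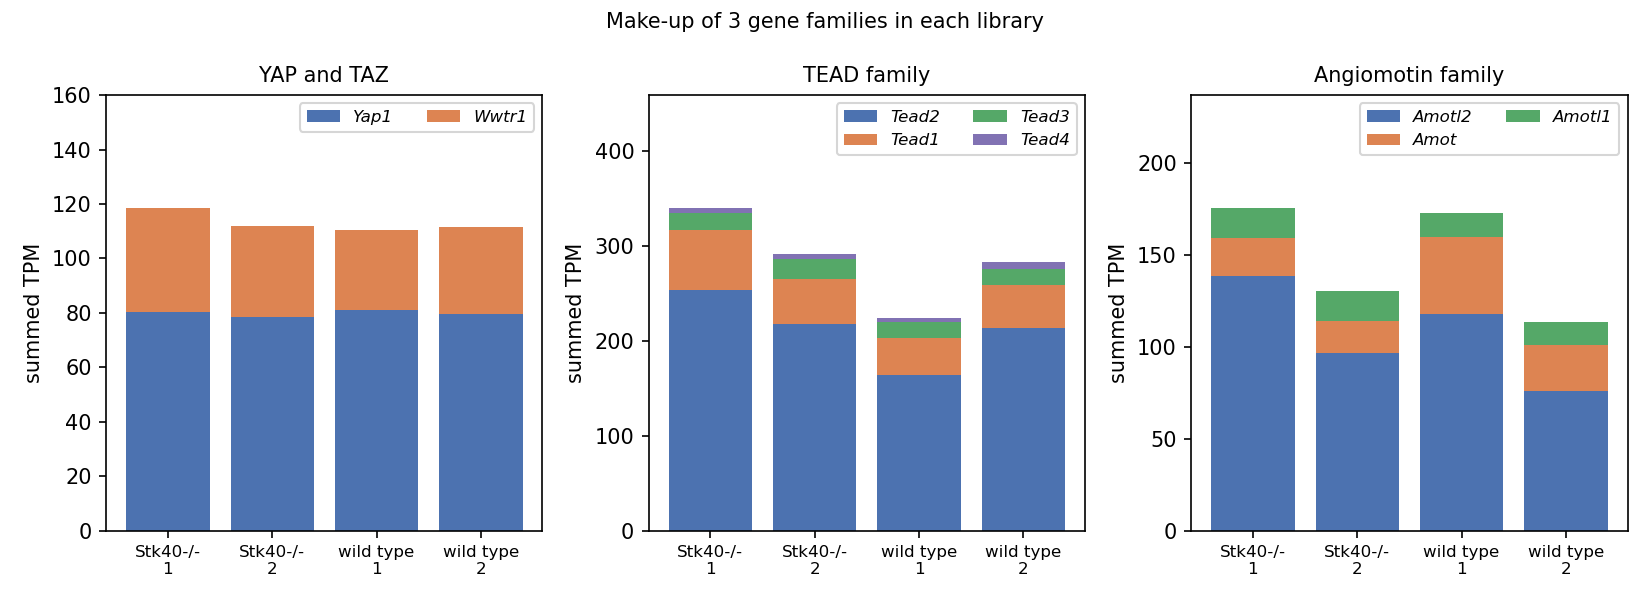
Summed TPM (vertical axis) of the YAP and TAZ genes, the TEAD family and the angiomotin family in each library, with the Stk40-/- libraries left of the wild-type libraries. Tead2 is about the same share of the TEAD sum in all 4 libraries, and Amot is a smaller share of the angiomotin sum in both Stk40-/- libraries.

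Amot (ENSMUSG00000041688.16; X chromosome, 145446425 to 145505181, minus strand), which encodes angiomotin, an actin-binding protein that sequesters YAP and in the mouse embryo takes part in activating LATS kinases, differed in the other direction from the targets. It was at 21.0 and 17.6 TPM in Stk40-/- libraries, against 41.6 and 24.7 TPM in wild-type libraries. The wild-type libraries were far apart, with library 1 much the higher, and both lay above the Stk40-/- libraries. The mean was 19.3 ± 2.41 TPM in Stk40-/- and 33.2 ± 12.0 TPM in wild-type cells, with a log2 fold change of -0.71 (SE 0.28, 95% interval -1.48 to 0.06, limma adjusted p = 0.477). Leaving out wild-type library 1 gave -0.34, and leaving out wild-type library 2 gave -1.07. Of the 11 other protein-coding genes within 5 Mb whose mean reached 5 TPM, 0 were separated with Stk40-/- lower, and their median log2 fold change was 0.23. Among 363 such genes of the X chromosome 85 were separated with Stk40-/- lower, and the median log2 fold change of the 363 was 0.07. Over all genes tested 16.6% were separated with Stk40-/- lower.

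Amotl2 (ENSMUSG00000032531.15; chromosome 9, 102716672 to 102733418), an angiomotin that is itself a YAP target and inhibits YAP in return, was the most abundant of the family. It was at 138 and 96.5 TPM in Stk40-/- libraries, against 118 and 76.1 TPM in wild-type libraries. The groups overlapped, and library 1 was far above library 2 in both genotypes. The log2 fold change of 0.28 (SE 0.29, 95% interval -0.49 to 1.06, limma adjusted p = 0.711) was smaller than the replicate differences on the same scale, 0.52 between the Stk40-/- libraries and 0.63 between the wild-type libraries. Its sign turned when wild-type library 2 was left out, at -0.029, and it was 0.60 when wild-type library 1 was.

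Amotl1, the remaining angiomotin gene, was at 16.3 and 16.2 TPM in Stk40-/- and 13.3 and 12.4 TPM in wild-type libraries (log2 fold change 0.32, SE 0.13, limma adjusted p = 0.491). As a share of the summed TPM of the 3 angiomotin genes, Amot was 12.0% and 13.5% in Stk40-/- libraries, against 24.1% and 21.8% in wild-type libraries. Amotl2 was 78.8% and 74.1% in Stk40-/- and 68.2% and 67.2% in wild-type libraries. These shares did not overlap between genotypes, and each was closer between replicates than the TPM of the genes were. The smallest exact permutation p that 2 against 2 libraries can give is 0.333, so no test is given for a share.

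Lats2 (ENSMUSG00000021959.15; chromosome 14, 57689662 to 57758388, minus strand), the kinase that phosphorylates YAP and TAZ and is induced by them, was the lowest of the 10 genes. It was at 6.00 and 4.79 TPM in Stk40-/- libraries, against 4.72 and 2.97 TPM in wild-type libraries. Stk40-/- library 2 and wild-type library 1 were nearly equal (log2 fold change 0.42, SE 0.29, 95% interval -0.37 to 1.21, limma adjusted p = 0.640), and leaving out wild-type library 2 gave 0.15, leaving out wild-type library 1 gave 0.68. Another annotated gene in GENCODE vM21, Gm49361, shares exons with Lats2 on the same strand and was not analysed here. Lats1, the other LATS kinase gene, was at 9.51 and 9.48 TPM in Stk40-/- and 9.10 and 7.82 TPM in wild-type libraries (log2 fold change 0.15, limma adjusted p = 0.738). Lats1 was thus the more abundant of the pair in every library, at 1.59 and 1.98 times Lats2 in Stk40-/- and 1.93 and 2.63 times in wild-type libraries.

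**Figure D3:**
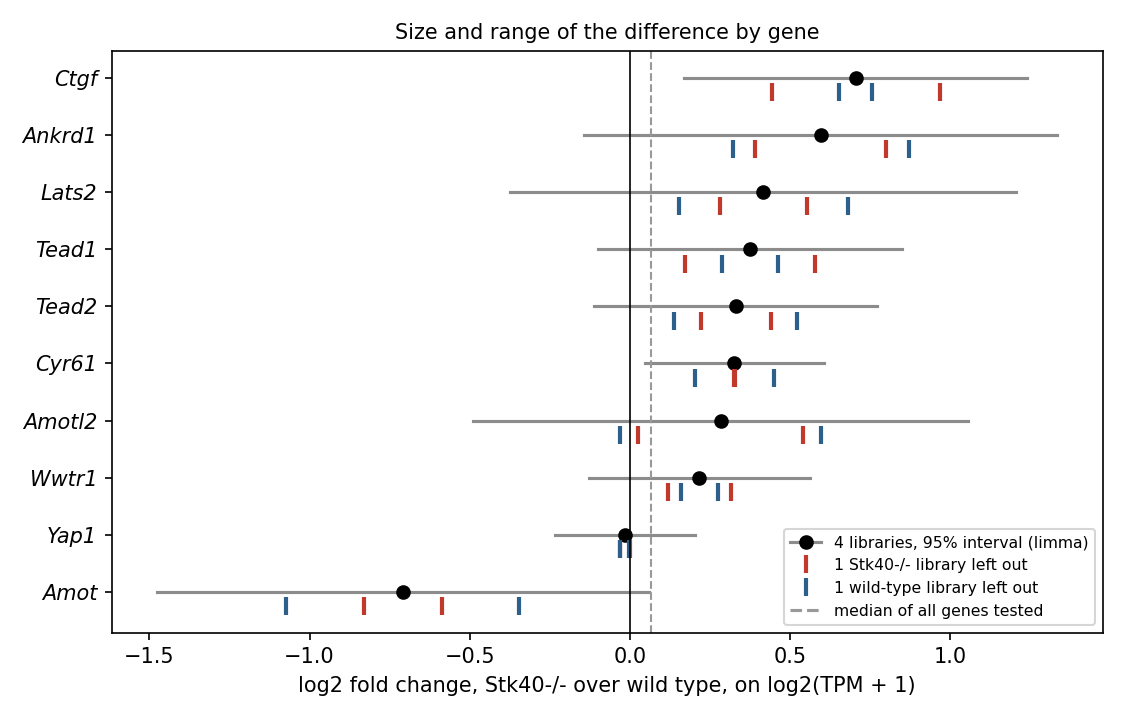
Log2 fold change of Stk40-/- over wild type for the 10 genes on the log2(TPM + 1) scale (horizontal axis), with the 95% limma interval as a line and the value with 1 library left out as ticks; the dashed line is the median of all genes tested, 0.07. The intervals of Ctgf and Cyr61 lie above 0 before adjustment over all genes, and Amotl2 has a tick on the other side of 0.

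Ranked by level, the 10 genes spanned from 303 TPM for Cyr61 to 5.39 TPM for Lats2 in Stk40-/- cells, and from 242 TPM for Cyr61 to 3.85 TPM for Lats2 in wild-type cells. In Stk40-/- cells the order was Cyr61, Tead2, Amotl2, Ctgf, Yap1, Tead1, Wwtr1, Amot, Ankrd1 and Lats2, and only the neighbours Amotl2 and Ctgf overlapped. In wild-type cells Yap1 stood above Ctgf, and Amot above Wwtr1. There Amotl2 overlapped with Yap1, Tead1 with Amot, and Amot with Wwtr1. The change of place between Yap1 and Ctgf did not rest on overlapping values: Ctgf was above Yap1 in both Stk40-/- libraries and below it in both wild-type libraries. Cyr61 was more abundant than 97.2% of all genes tested in Stk40-/- cells and 96.5% in wild-type cells.

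Replicate libraries also differed in part in the same way. In 6 of the 10 genes, Yap1, Lats2, Amot, Amotl2, Cyr61 and Ankrd1, library 1 was above library 2 in both genotypes, an arrangement seen in 32.3% of all genes tested, and in 0 of the 10 it was below in both, which 23.5% of all genes showed. This pattern was looked for after the values had been seen. For Yap1 and for Cyr61 in Stk40-/- cells the differences were minute. For Amotl2, Lats2 and Ankrd1 the log2 difference of library 1 over library 2 ran from 0.27 to 0.52 in Stk40-/- cells and from 0.53 to 0.63 in wild-type cells. Of the 9 tested mesoderm markers 7 were also higher in library 1 in both genotypes. Nothing in the labels says what a shared number stands for.

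Lists of other genes of the pathway are given for comparison. Over all genes tested, 27.5% were separated with Stk40-/- higher and 16.6% with it lower. The counts of each list here and in the next paragraphs are descriptions to be read against these shares. Of 17 genes of the core kinase cascade and its upstream regulators 15 were tested, 0 passed, 4 were separated with Stk40-/- higher and 2 with it lower, and the median log2 fold change was 0.04. Wwc1, which encodes the upstream scaffold KIBRA and is also regulated by YAP, was at 41.8 and 40.3 TPM in Stk40-/- and 29.2 and 30.7 TPM in wild-type libraries (log2 fold change 0.44, SE 0.10, limma adjusted p = 0.366). Mob1a, the LATS cofactor, was at 54.2 and 51.7 TPM in Stk40-/- and 64.8 and 60.8 TPM in wild-type libraries. Taok1 and Stk3, which encode the kinases TAOK1 and MST2 above LATS, were both separated with Stk40-/- higher. Taok1 was at 33.1 and 27.5 TPM in Stk40-/- and 25.2 and 14.3 TPM in wild-type libraries. Stk3 was at 16.1 and 13.7 TPM in Stk40-/- and 13.3 and 6.54 TPM in wild-type libraries. Both spread widely between the wild-type libraries. Nf2, which encodes the tumour suppressor merlin, was at 84.3 and 97.2 TPM in Stk40-/- and 77.0 and 94.8 TPM in wild-type libraries, with overlap.

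Another 14 genes encode proteins that bind or restrain YAP and TAZ or the kinases above them. All 14 were tested, 0 passed, 8 were separated with Stk40-/- higher and 0 with it lower, and the median log2 fold change was 0.15. Ptpn14, a phosphatase that binds YAP and is also a YAP target, was at 65.8 and 56.7 TPM in Stk40-/- libraries, against 33.6 and 37.3 TPM in wild-type libraries, with the groups well apart (log2 fold change 0.77, SE 0.13, limma adjusted p = 0.279). Ajuba, a LIM protein that inhibits LATS, was at 131 and 110 TPM in Stk40-/- and 88.6 and 86.1 TPM in wild-type libraries (log2 fold change 0.46, SE 0.12, limma adjusted p = 0.399). The 14-3-3 epsilon gene Ywhae, whose family holds phosphorylated YAP in the cytoplasm, was at 1908 and 1982 TPM in Stk40-/- and 1521 and 1609 TPM in wild-type libraries. Strn3, of the STRIPAK phosphatase complex that counteracts the Hippo kinases, was at 64.5 and 59.6 TPM in Stk40-/- and 50.7 and 38.2 TPM in wild-type libraries. Among the Vestigial-like cofactors of TEAD, Vgll4 was at 21.4 and 16.9 TPM in Stk40-/- and 22.4 and 21.1 TPM in wild-type libraries, and Vgll3 at 9.03 and 6.71 TPM in Stk40-/- and 11.7 and 8.96 TPM in wild-type libraries. Both overlapped between genotypes.

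Other genes of a commonly used YAP and TAZ signature went both ways. Of 17 genes besides the 10, 15 were tested and 0 passed, with 8 positive and 7 negative fold changes and a median log2 fold change of 0.07, that of all genes tested. Of these, 3 were separated with Stk40-/- higher and 2 with it lower. Ptpn14, given above, belongs to this list too. The growth arrest gene Gadd45a was at 53.8 and 57.4 TPM in Stk40-/- and 26.8 and 38.8 TPM in wild-type libraries (log2 fold change 0.77, SE 0.20, limma adjusted p = 0.401). Myof, the myoferlin gene, was at 2.48 and 1.72 TPM in Stk40-/- and 6.96 and 4.49 TPM in wild-type libraries (log2 fold change -1.10, SE 0.32, limma adjusted p = 0.407). Nt5e, which encodes the ecto-nucleotidase CD73, was at 36.0 and 25.7 TPM in Stk40-/- and 51.6 and 39.3 TPM in wild-type libraries.

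Ctgf, Cyr61 and Ankrd1 also respond to serum response factor, and Cyr61 is an immediate early gene, so lists of both kinds are given beside them. Of 16 actin and serum response factor genes all were tested, 0 passed, 8 were positive and 8 negative, and the median log2 fold change was 0.01. Of these, 3 were separated with Stk40-/- higher and 3 with it lower. Smooth muscle actin, Acta2, was at 4.59 and 2.99 TPM in Stk40-/- and 14.3 and 11.7 TPM in wild-type libraries (log2 fold change -1.56, SE 0.25, limma adjusted p = 0.276). The transgelin gene Tagln was at 268 and 282 TPM in Stk40-/- and 385 and 359 TPM in wild-type libraries, and the myosin light chain gene Myl9 at 21.1 and 24.6 TPM in Stk40-/- and 26.7 and 30.6 TPM in wild-type libraries. The calponin gene Cnn1 was among the 3 separated the other way, at 73.9 and 82.7 TPM in Stk40-/- and 61.0 and 66.9 TPM in wild-type libraries. Of 13 immediate early genes 11 were tested, 0 passed, 1 was separated with Stk40-/- higher and 5 with it lower, and the median log2 fold change was -0.21. Fos was at 1.73 and 1.26 TPM in Stk40-/- and 4.01 and 4.84 TPM in wild-type libraries. Atf3, at 18.5 and 18.9 TPM in Stk40-/- and 25.0 and 22.0 TPM in wild-type libraries, and Ier2, at 67.9 and 70.4 TPM in Stk40-/- and 83.2 and 77.1 TPM in wild-type libraries, lay on the same side. The phosphatase gene Dusp1 was the 1 separated with Stk40-/- higher, at 36.3 and 33.8 TPM in Stk40-/- and 27.5 and 29.1 TPM in wild-type libraries.

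**Figure D4:**
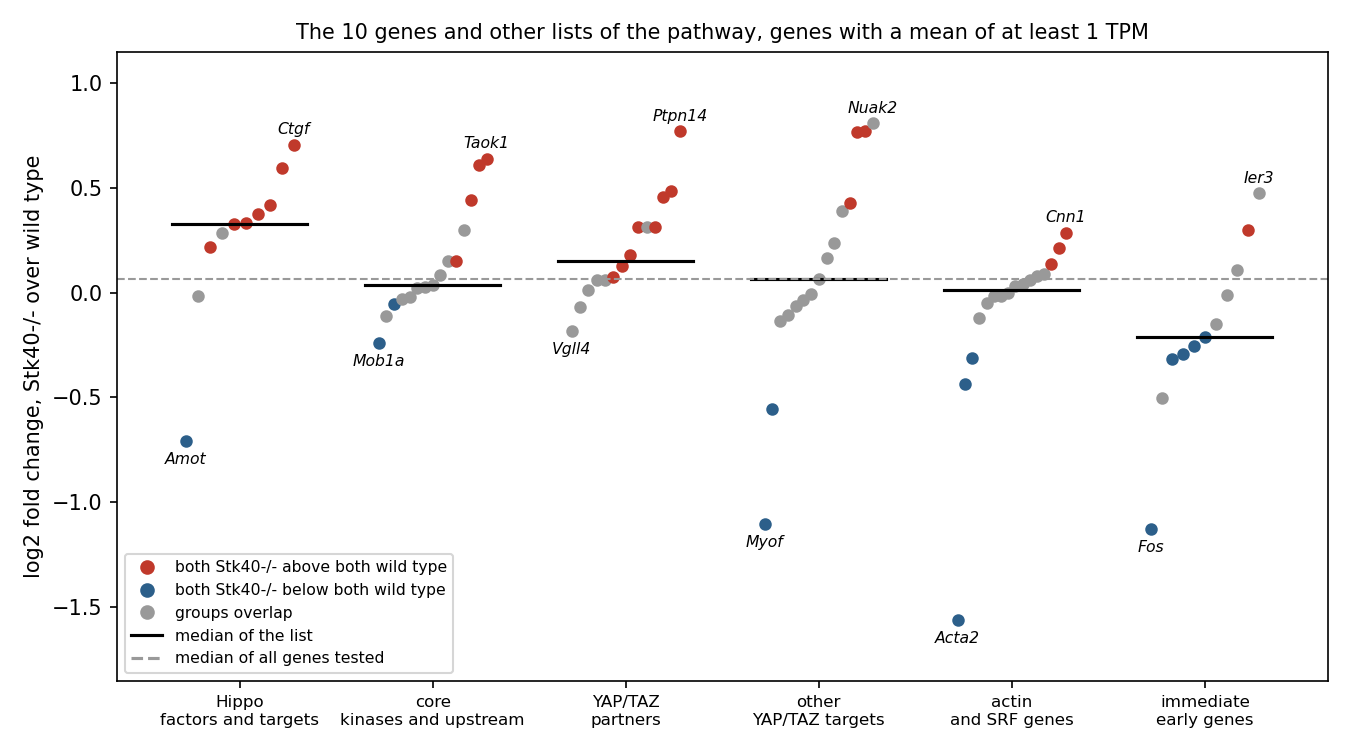
Log2 fold change of Stk40-/- over wild type (vertical axis) for the 10 genes and for 5 lists around the pathway, 1 point for each gene tested; red marks genes separated with Stk40-/- higher, blue those with it lower, grey overlap. The median of the 10 genes is 0.33, that of the other YAP and TAZ targets is 0.07, and Acta2 is the lowest point.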

How the data were processed

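Gene expression was taken from 1 deposited table of TPM per gene and library, per the file headers. Per the submitters' processing notes, CASAVA 1.7 and Salmon 0.8.2 were used and the build was hg38, a human one, while the IDs are mouse Ensembl IDs; the authors' annotation is not given in those sources. Per the labels' protocols, libraries were read on either of 2 instruments, and which on which is not given, so no batch term could be fitted. TPM keeps no depth, so no counting interval is given. Groups and library numbers came from sample titles, and 0 per-sample columns were left unused.

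Genes averaging 1 TPM or more were fitted with limma 3.58.1 (R 4.3.3) on log2(TPM + 1), 2 Stk40-/- against 2 wild-type libraries, with an intensity trend, no block and Benjamini-Hochberg adjustment over 15739 genes at a threshold of 0.05. The procedure was tested on simulated data. The 10 genes, the lists and the tests were chosen with earlier results of these data known. From each list up to 4 genes with the smallest unadjusted p were named, and Lats1, Nf2, Tead3, Tead4, Vgll4 and Amotl1 in any case. Positions are from GENCODE vM21 on GRCm38, by ID without version, and promoters from RefSeq. There were 13 alternatives, namely pseudocounts of 0.1 and 0.01, a mean above 0 or of 5 TPM or more as the filter, 3 other scalings, no intensity trend, a replicate block and each library left out.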

Additional observations from a re-analysis of the deposited data

How the results depend on the processing

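Under all 13 alternatives limma called 0 of the 10 genes and 0 of all genes tested. A replicate block cannot change a log2 fold change in this balanced design, so the median of the 10 genes stayed at 0.33 by construction. With it 0 genes were called, and the smallest limma adjusted p of the 10 genes was 0.329. Across genes the differences of library 1 minus library 2 in the 2 genotypes had a correlation of 0.089, so the shared numbers were not taken as pairs. The number of genes separated with Stk40-/- higher, 7, was 4 with median centring and 6 with quantile normalization. It was 6 of the 9 genes left at a mean of at least 5 TPM, and ran from 7 to 8 with 1 library left out. The number separated with Stk40-/- lower, 1, was 2 with quantile normalization and with median centring, where Yap1 joined Amot, and ran from 1 to 2 with 1 library left out. With fewer libraries groups separate more easily by construction. The median log2 fold change of the 10 genes, 0.33, was 0.20 with Stk40-/- library 1 left out and 0.49 with Stk40-/- library 2 left out. That of Amotl2 ranged from -0.029 to 0.60 with 1 library left out, and the cause of its turn in sign was not tested. The other 9 genes kept their sign under every alternative run; Lats2 could not be fitted at a mean of at least 5 TPM. A library left alone in its genotype was assumed to vary like the other group. With 2 libraries a genotype and unknown depth, the interval of each difference is wide.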

Other observations

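Among the YAP and TAZ signature genes outside the 10, some differed more between libraries of the same genotype than between genotypes. The following were picked after their values were seen. Igfbp3, which encodes an insulin-like growth factor binding protein and was the most abundant of the list, was at 493 and 312 TPM in Stk40-/- libraries 1 and 2 and at 527 and 339 TPM in wild-type libraries 1 and 2. Nuak2, a kinase gene, was at 9.22 and 4.73 TPM in Stk40-/- and 4.93 and 2.22 TPM in wild-type libraries. The extracellular matrix gene Ccdc80 was at 5.22 and 0.220 TPM in Stk40-/- and 2.34 and 0.324 TPM in wild-type libraries. In 10 of the 15 tested genes of this list library 1 was above library 2 in both genotypes and in 2 it was below in both, where over all genes tested the shares were 32.3% and 23.5%.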
